A study of Mus musculus with 12 samples.

Results

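Fmod, Col1a2 and Fgf7 are genes of connective tissue cells that the authors' short lists name among probe sets that differ between Ercc1-deficient and control brain. Every probe set those lists name Fmod or Col1a2 was taken, with the 1 probe set of Fgf7, which gives 5 of 45037 probe sets and 3 genes. The tissues were hippocampus and cerebellum of mice at postnatal day 21, from FVB and C57BL/6 crosses, either lacking Ercc1, a DNA repair nuclease subunit (Ercc1-/-, here KO), or Ercc1+/+ littermates (WT). The RNA of each sample was read on 1 Affymetrix mouse expression array, 12 in all and 3 for each of KO hippocampus, WT hippocampus, KO cerebellum and WT cerebellum. The labels do not say whether hippocampus and cerebellum arrays of the same number come from one mouse.

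Type I collagen is a triple helix of alpha 1 and alpha 2 chains, and Col1a2 encodes the alpha 2 chain. Fibromodulin, the product of Fmod, is a small leucine-rich proteoglycan that binds collagen fibrils and shapes their assembly. In the brain such fibrillar matrix is made mainly by fibroblasts of the meninges and of vessel walls. Fgf7, keratinocyte growth factor, is secreted by mesenchymal cells and signals through a splice form of Fgfr2. In mouse hippocampus it is also made by neurons and acts in the organisation of inhibitory synapses.

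The question here was whether the 3 genes move together on single arrays. Fmod (gene ID 14264) lies on chromosome 1 at 134037254 to 134048280, Col1a2 (gene ID 12843) on chromosome 6 at 4505618 to 4541543, and Fgf7 (gene ID 14178) on chromosome 2 at 126034658 to 126091185, in build GRCm38.p6. Their promoters are shown because the question is about joint movement of the 3 genes. These are the 250 bases before each RefSeq gene start, all on the plus strand, at chr1:134037004-134037253, chr6:4505368-4505617 and chr2:126034408-126034657. Capitals mark matches to any of 6 motifs searched on both strands. The letters searched were TATAAA for the promoter element known as the TATA box, CCAAT for the binding site of nuclear factor Y, and GGGCGG for the Sp1 site called the GC box. Further letters searched were CAGACA for the SMAD-binding element of TGF-beta signalling, GGAATG for the site of TEAD factors, and CANNTG for the E-box of helix-loop-helix factors.
Fmod: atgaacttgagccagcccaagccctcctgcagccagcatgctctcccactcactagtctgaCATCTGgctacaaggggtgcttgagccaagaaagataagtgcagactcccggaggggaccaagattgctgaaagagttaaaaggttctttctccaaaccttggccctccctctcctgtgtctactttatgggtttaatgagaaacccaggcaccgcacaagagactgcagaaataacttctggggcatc
Col1a2: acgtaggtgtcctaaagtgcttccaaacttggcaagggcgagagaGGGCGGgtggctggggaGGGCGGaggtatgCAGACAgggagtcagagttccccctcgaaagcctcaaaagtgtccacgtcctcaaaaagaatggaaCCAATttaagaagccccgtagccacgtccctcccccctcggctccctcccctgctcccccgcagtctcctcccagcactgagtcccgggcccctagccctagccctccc
Fgf7: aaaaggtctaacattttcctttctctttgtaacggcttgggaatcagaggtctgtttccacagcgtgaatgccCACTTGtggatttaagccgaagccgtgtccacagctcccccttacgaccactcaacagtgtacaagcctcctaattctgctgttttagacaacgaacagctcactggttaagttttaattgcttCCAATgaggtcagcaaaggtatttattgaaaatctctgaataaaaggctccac
No motif was found in all 3 windows. Col1a2 held 2 GC boxes, 1 SMAD-binding element and 1 CCAAT box, Fgf7 held 1 CCAAT box and 1 E-box, and Fmod held 1 E-box. No matches overlapped, and no window held a TATA box or a TEAD site. Of all 32851 promoter windows of this length, 33.8% hold the CCAAT box, 32.7% the GC box, 17.1% the SMAD-binding element, 66.2% the E-box, 12.4% the TATA box and 12.6% the TEAD site. The windows also differed in base composition, with 62% G and C in Col1a2, 51.2% in Fmod and 43.6% in Fgf7.

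Median intensities per array spanned 160.2 to 168.2 for hippocampus, with 154.4 to 168.2 for cerebellum. Ercc1 itself averaged 60.2 ± 9.0 in KO and 195.9 ± 24.3 in WT hippocampus, and 63.6 ± 7.3 in KO and 169.6 ± 54.1 in WT cerebellum (SD, n = 3 each), with no overlap. No source used here says where its probe set sits relative to the disruption. Few genes known for 1 region could be named, and 3 were picked after their values were seen. Neurod1, a factor of granule neurons, read 1168 to 1753 on hippocampus and 6996 to 7742 on cerebellum arrays, Cck, the gene of a neuropeptide, 5262 to 6726 and 509.0 to 772.3, and Tdo2, a tryptophan-degrading enzyme of dentate granule cells, 209.2 to 337.0 and 53.0 to 120.1. Of 33 listed fibroblast and meningeal markers only Fmod and Col1a2 carry a name in the short lists, so the cell of origin could not be checked against other markers. The suffix of the probe set names matters here, as both Fmod probe sets are of the x type, which can bind similar sequences of other genes.

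All 5 probe sets were higher on every KO cerebellum array than on every WT cerebellum array, and this is why they carry a name: each is in the authors' cerebellum list and none is in the hippocampus list. The cerebellum difference therefore describes how they were chosen and supports nothing. Among all 27022 probe sets tested there, 5.3% had KO arrays all above WT arrays. In bulk tissue, more cells of a type and more RNA per cell cannot be told apart.

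Between Fmod and Col1a2, Fmod had the larger cerebellum difference. The brighter probe set, 1456084_x_at, read 227.6, 207.9 and 215.9 on the KO arrays and 148.7, 119.2 and 104.1 on the WT arrays of cerebellum. The second, 1438966_x_at, read 144.3, 137.9 and 140.0 on KO and 105.9, 74.2 and 72.5 on WT arrays. KO arrays lay close together, while the highest WT array stood 1.43 and 1.46 times above the lowest. The log2 differences, KO minus WT, were 0.68 ± 0.12 and 0.58 ± 0.12 (SE, n = 3 per group), the dimmer one from a fit with no filter, since it fell below the percentile used. The authors' deposited table gives signed fold changes of 1.75 and 1.67 for them.

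Col1a2 differed less in cerebellum. Probe set 1450857_a_at read 911.7, 775.3 and 898.2 on the KO arrays and 665.0, 690.0 and 627.1 on the WT arrays. Probe set 1423110_at read 220.7, 225.5 and 261.8 on KO and 199.4, 171.0 and 153.2 on WT arrays. Groups did not overlap in either, though the lowest KO value of 1423110_at was near the highest WT value. The log2 differences were 0.37 ± 0.10 and 0.38 ± 0.12 (SE, n = 3 per group), and the authors' deposited table gives signed fold changes of 1.3 and 1.35.

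Fgf7 had the largest cerebellum difference of the 3 genes. It read 596.8, 622.9 and 592.6 on the KO arrays and 302.4, 387.5 and 298.5 on the WT arrays. KO arrays were nearly level and WT 2 stood above the other WT arrays. The log2 difference was 0.82 ± 0.12 (SE, n = 3 per group), and the authors' deposited table gives a signed fold change of 1.83.

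In cerebellum no member passed the test (limma, adjusted p between 0.203 for Fgf7 and 0.966 for Col1a2 1423110_at), where 0 of 27022 did, which is 0% called. All 5 had an unadjusted p under 0.05, as 4.33% of probe sets did, which the authors' choice by p favours. With 1 fit over all 12 arrays, which pools the spread of both regions, Fgf7 passed (adjusted p = 0.0137), as 34 probe sets or 0.126% did. Control probe sets had values for cerebellum only, so RNA quality could not be read from them in hippocampus. The 3' to 5' ratio of the Gapdh controls, a sign of RNA quality, was 1.497 on cerebellum KO 1. It was 0.999 and 1.015 on the other KO arrays and 1.08 to 1.20 on the WT arrays. Its part in the result was not tested. On KO 1 the Fmod probe sets lay 0.030 and 0.060 above the KO mean on the log2 scale, and Col1a2 1450857_a_at 0.082 above. Each of these was highest of the KO arrays there. Col1a2 1423110_at was lowest there, at 0.082 below, and Fgf7 lay 0.016 below.

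**Figure D1:**
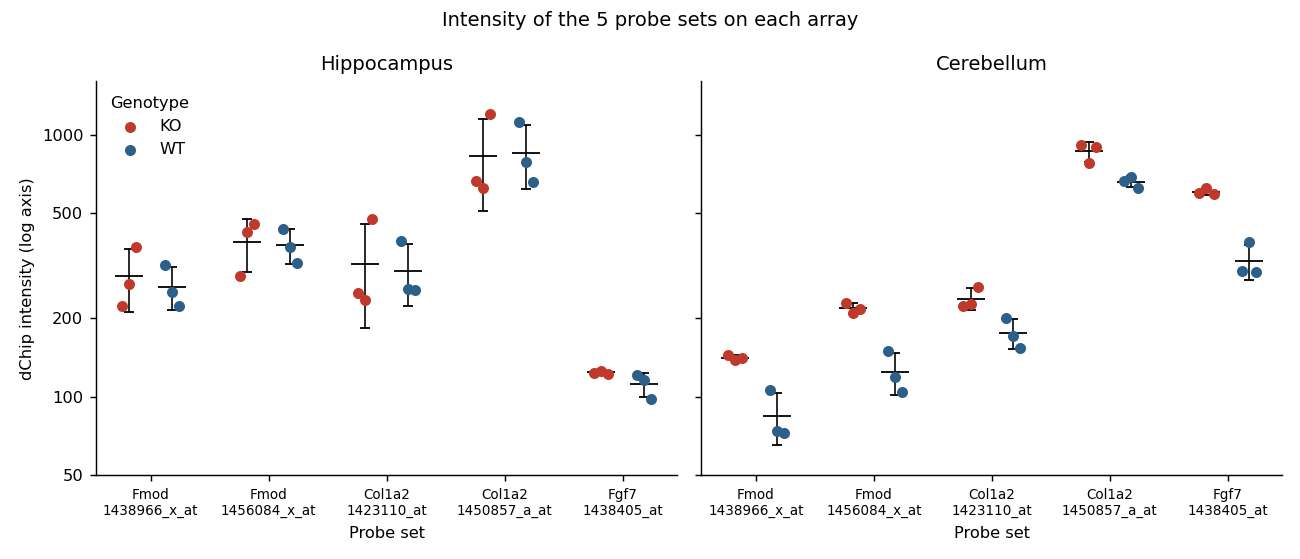
Intensity of the 5 probe sets on each array (log axis), KO left of WT, hippocampus in the left panel and cerebellum in the right; points are arrays, and bars give the mean ± SD of 3 arrays. In cerebellum the KO arrays lie above the WT arrays for each probe set, and in hippocampus the groups overlap for Fmod and Col1a2.

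The hippocampus arrays did not choose the members, so the comparison there can be tested. Fmod and Col1a2 did not differ between KO and WT beyond the spread of arrays. Fmod 1456084_x_at read 287.4, 424.4 and 454.2 on KO and 437.5, 371.9 and 322.6 on WT arrays. Fmod 1438966_x_at read 222.4, 268.3 and 373.4 on KO and 317.0, 249.6 and 221.1 on WT arrays. The groups overlapped in both, and the log2 differences were 0.025 ± 0.18 and 0.11 ± 0.20 (SE, n = 3 per group), with 95% intervals from -0.41 to 0.46 and from -0.36 to 0.57.

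Col1a2 varied most. Probe set 1450857_a_at read 665.3, 625.6 and 1196 on KO and 1115, 787.3 and 657.7 on WT hippocampus arrays. Probe set 1423110_at read 248.3, 234.0 and 476.9 on KO and 392.9, 257.0 and 254.8 on WT arrays. KO 3 and WT 1 stood above the other 4 arrays in both probe sets, so the high arrays include both genotypes. The log2 differences were -0.067 ± 0.28 and 0.036 ± 0.28 (SE, n = 3 per group), with 95% intervals from -0.72 to 0.59 and from -0.61 to 0.68, and leaving out single arrays turned the sign of both.

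Fgf7 was dim in hippocampus, at 123.1, 125.5 and 122.4 on KO and 120.5, 116.0 and 97.8 on WT arrays. Its mean ranked at percentile 42.1 of all probe sets there, just inside the filter. KO arrays all lay above WT arrays, as for 4.48% of 27022 probe sets. The log2 difference was small, 0.12 ± 0.10 (SE, n = 3 per group, 95% interval from -0.11 to 0.35), and the exact permutation p of 0.1 is the smallest that 3 against 3 arrays allow.

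None of the 5 passed in hippocampus (limma, adjusted p = 0.9999 for each), where 0 of 27022 did (0% called), and none had an unadjusted p under 0.05, as 3.71% of all probe sets did. The KO difference in hippocampus minus that in cerebellum was below 0 for each. It was -0.70 ± 0.15 for Fgf7, -0.66 ± 0.23 and -0.48 ± 0.24 for Fmod, and -0.43 ± 0.32 and -0.34 ± 0.32 for Col1a2 (SE, 12 arrays). None passed (adjusted p between 0.869 and 0.9999), and 0.00429% of 23283 probe sets did. An unadjusted p under 0.05 was reached by Fgf7 and the brighter Fmod probe set, as by 3.14% of all. The members were chosen on the cerebellum term of that difference, which favours its sign.

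The levels themselves differed between the regional tables, which were made separately, so they are set side by side with no test. Fgf7 averaged 111.4 ± 12.04 in WT hippocampus and 329.5 ± 50.3 in WT cerebellum (SD, n = 3 each). Fmod ran the other way, at 377.4 ± 57.6 and 124.0 ± 22.7 for 1456084_x_at. Col1a2 1450857_a_at read 853.3 ± 235.6 and 660.7 ± 31.6, within 1 SD of hippocampus.

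None of the relations between the 3 genes on single arrays passed a test. Within 1 region a relation could not have passed alone, as 6 arrays allow too few orders. Whether the pairs of genes differ in how they move together was not tested. In hippocampus all 4 probe sets of Fmod and Col1a2 were highest on KO 3 among the KO arrays and on WT 1 among the WT arrays. Of 27022 probe sets there, 14.4% had this pattern, which was noticed after the values were seen. On KO 3, Col1a2 stood 1.85 and 1.98 times above the mean of the other KO arrays and Fmod 1.28 and 1.52 times, while Fgf7 was at 0.984. On WT 1, Col1a2 stood 1.54 times above the mean of the other WT arrays in both probe sets and Fmod 1.26 and 1.35 times, while Fgf7 was at 1.13. On KO 2, Col1a2 was lowest of the KO arrays in both probe sets. The brighter Fmod probe set was 0.14 above the group mean there and the dimmer one 0.064 below it. The leading residual component of all probe sets held 69.7% of the variance within hippocampus groups. Both Col1a2 probe sets and the dimmer Fmod probe set had its sign on 5 of the 6 arrays, all but KO 1, and the brighter Fmod probe set on 4. Fgf7 had it on 2 and the opposite sign on the others. The direction of a component is arbitrary, and the share of all probe sets with such counts was not computed. The part of this component in the joint movement was not tested.

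The spread of Col1a2 in hippocampus was wide. Its residual SD was 0.44 and 0.43 on the log2 scale, above that of 95.4% and 95.2% of the probe sets tested, and that of Fmod was 0.27 and 0.29 (84.7% and 87.2%). The median over all probe sets was 0.145. The residual SD of Fgf7 was 0.088, above that of 19.6%. In cerebellum the 5 residual SDs lay between 0.0997 and 0.160, against a median of 0.144. The array differences of Col1a2 in hippocampus, up to 2.04 times between KO arrays, were thus larger than its KO difference in cerebellum.

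**Figure D2:**
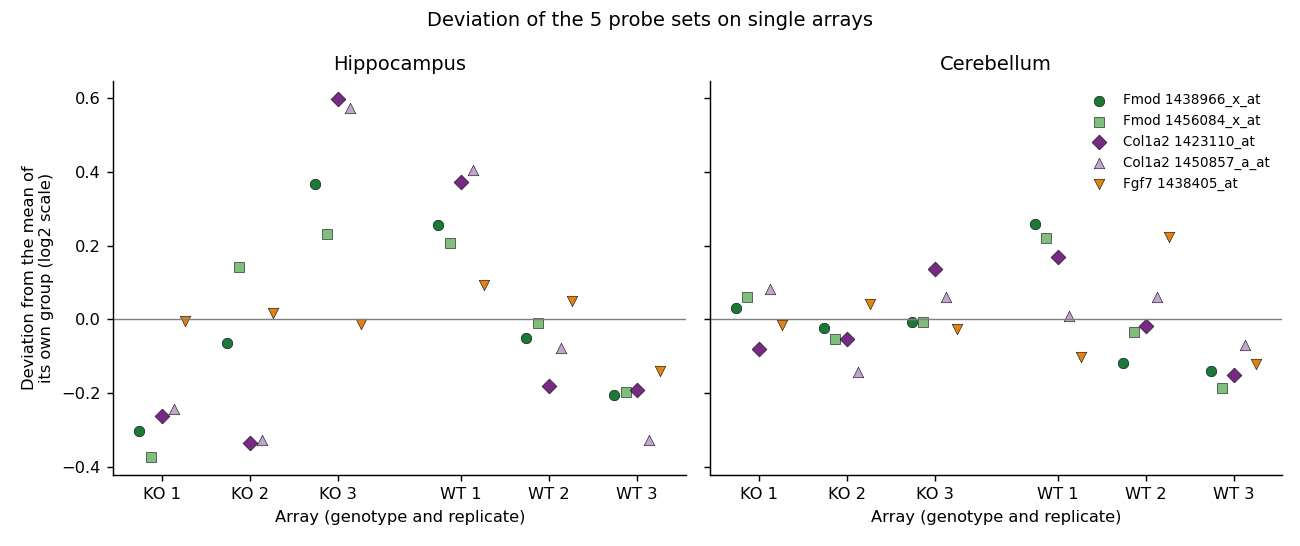
Deviation of each probe set from the mean of its own group (log2 scale) on the 6 hippocampus arrays (left) and the 6 cerebellum arrays (right); each symbol is a probe set. On hippocampus KO 3 and WT 1 the 4 symbols of Fmod and Col1a2 lie between 0.207 and 0.599 above the group mean, and Fgf7 lies at -0.012 and 0.092.

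Each gene was taken by its brightest probe set for the correlations, with group means removed so that genotype plays no part. Fmod and Col1a2 had r = 0.68 (rho = 0.60) over the 6 hippocampus arrays, r = 0.42 (rho = 0.60) over the 6 cerebellum arrays, and r = 0.63 (rho = 0.61) over all 12. The exact permutation p of r was 0.222, 0.306 and 0.186, and that of rho 0.361, 0.167 and 0.124. Adjusted over the 9 relations computed, the permutation p was 0.55 for each r and at least 0.75 for each rho, so none passed. Within a region, 6 arrays allow a permutation p no smaller than 0.0278, so 1 relation there could not pass alone after this adjustment. Over 12 arrays the smallest possible is 0.000772. Deviations were not scaled by region, so the 12-array r leans on hippocampus, where both genes spread more. The residual SD of these probe sets was 0.27 in hippocampus and 0.15 in cerebellum for Fmod, and 0.44 and 0.0997 for Col1a2. The 12-array r is therefore not separate support from cerebellum. Without the 2 arrays farthest out in Fmod, r was 0.66, 0.67 and 0.47. Without single arrays, r in cerebellum spanned 0.16 (without WT 3) to 0.83 (without WT 1). In hippocampus it spanned 0.52 (without KO 3) to 0.98 (without KO 2), and over all 12 arrays 0.49 to 0.88 for the same 2 hippocampus arrays.

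The choice of probe set mattered for this pair. Over the 4 pairs of an Fmod and a Col1a2 probe set, r spanned 0.65 to 0.94 in hippocampus and 0.17 to 0.74 in cerebellum. The lower values come with 1456084_x_at in hippocampus and with 1450857_a_at in cerebellum. Within a gene, the 2 Fmod probe sets had r = 0.89 in hippocampus and 0.94 in cerebellum, and those of Col1a2 0.98 and 0.37. The Col1a2 probe sets therefore followed each other closely where the gene varied most and little where it varied least. All these values rest on arrays that share their background and scaling.

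No relation of Fgf7 to either matrix gene passed, and 6 arrays leave wide room for one. Its r with Fmod was 0.50 in hippocampus, -0.13 in cerebellum and 0.18 over all 12 arrays, and with Col1a2 0.44, 0.22 and 0.27. The exact permutation p of r lay between 0.222 and 0.861, and between 0.55 and 0.861 after adjustment over the 9 relations. That of rho lay between 0.611 and 1, or 0.809 and 1 adjusted, with rho between -0.029 and 0.26. Without the 2 farthest arrays r lay between -0.52 and 0.62.

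As a scale for these values, the r of each gene with all other probe sets was computed. For Fmod and Col1a2 the 12-array shares lean on hippocampus, as their r does. Over 12 arrays, 0.597% of 23282 probe sets followed Fmod at least as closely as Col1a2 did, and 6.74% of 23281 followed Col1a2 at least as closely as Fmod did. In hippocampus alone these shares were 3.05% and 15.2%, and in cerebellum 19.5% and 17.6%. For Fgf7 over 12 arrays, 20.2% followed Fmod and 32.3% followed Col1a2 at least as closely as Fgf7 did. In hippocampus these shares were 8.53% and 31.7%, and in cerebellum 53.9% and 33.0%.

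**Figure D3:**
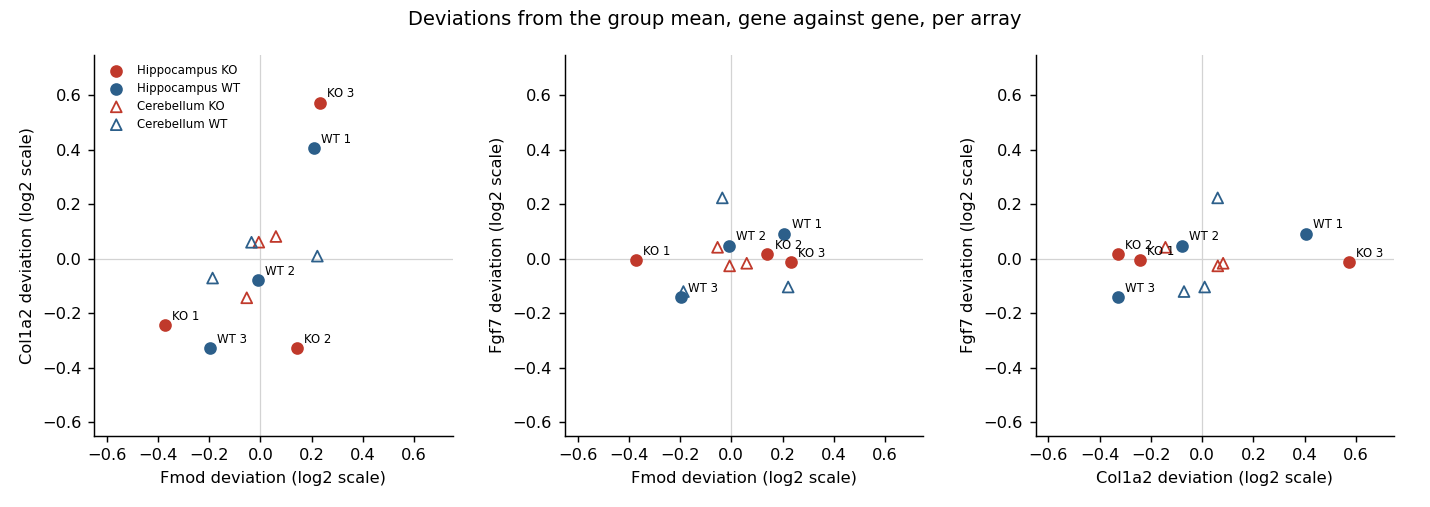
Deviation from the group mean (log2 scale) of one gene against another on the 12 arrays, by the brightest probe set of each; filled circles are hippocampus, open triangles cerebellum. In the panel of Fmod and Col1a2, hippocampus KO 3 and WT 1 lie at the upper right and KO 1 and WT 3 at the lower left, while KO 2 lies off that line; Fgf7 spans a narrow range.

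The named probe sets most like each gene over 12 arrays, with group means removed, were different for the 3 genes. For Fmod they were Serping1, the inhibitor of complement C1 (r = 0.92), Dpy19l1, a mannosyltransferase (r = 0.72), and Idi1, a sterol pathway isomerase (r = 0.68). For Col1a2 they were Eva1a, a membrane protein of autophagy (r = 0.91), the second Fmod probe set (r = 0.82), and Hmgcs1, the HMG-CoA synthase (r = 0.80). For Fgf7 they were Acsl6, an acyl-CoA synthetase (r = 0.94), Fut9, a fucosyltransferase (r = 0.85), and B2m, the light chain of MHC class I (r = 0.83). Each is the top of 536 or 537 candidates, so a high r is favoured by the search. The match of Eva1a with Col1a2 was r = 0.94 in hippocampus and -0.071 in cerebellum. In the same order, r was 0.94 and 0.17 for the second Fmod probe set with Col1a2. It was 0.86 and 0.37 for Idi1 with Fmod, and 0.39 and 0.97 for B2m with Fgf7. The rest had r of at least 0.706 in each region.

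Markers of other cells on the 2 high hippocampus arrays were read from lists on the same scale. Alas2, a haem enzyme of red cells and the 1 of 9 erythroid genes with a name, read 151.7, 123.5 and 273.1 on KO and 258.0, 339.1 and 273.7 on WT arrays, so it was high on KO 3 and not on WT 1. Ly6a, the 1 of 14 endothelial genes with a name, was 0.085 above its group mean on KO 3 and 0.036 below on WT 1. The 8 named microglia genes of 15 averaged 0.018 above and 0.15 below, with summed intensities of 12186 to 12743 on KO and 10189 to 11558 on WT arrays. The 5 astrocyte genes of 12 averaged 0.064 and 0.0038 above, with sums of 17925 to 18924 on KO and 17229 to 17553 on WT arrays. These means hide a split, as 3 of the 5 lay above on KO 3 and only 1, Gfap, on WT 1. Gfap, by its brightest probe set, was highest on the same 2 arrays as Fmod and Col1a2, at 0.19 and 0.38 above. Of all probe sets tested in hippocampus, 14.4% had this pattern. The 4 oligodendrocyte genes of 11 averaged 0.017 and 0.086 above, with sums of 11606 to 12111 on KO and 12273 to 17365 on WT arrays. None of the 13 choroid plexus and 12 mural cell genes could be named. The part of these cells in the result was not tested.

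Other genes of the matrix came from a list of 44 genes of collagen processing, matrix and TGF-beta signalling, of which 7 could be named, all through the authors' own lists. None passed in either region (limma, 0 of 7 each), and none of the other collagens, small leucine-rich proteoglycans or Fgf pathway genes listed could be named. Smad7 read 1 on each KO and 1 to 4 on the WT cerebellum arrays, too dim for the filter, so it gives no direction there. Of the 6 others in cerebellum, 5 had differences above 0, with a median of 0.35 on the log2 scale, against -0.015 over all probe sets. The authors' lists, through which these genes are named, chose them partly on that contrast. In hippocampus 4 of 7 did, with a median of 0.066 against 0.0071. On the high hippocampus arrays KO 3 and WT 1, the 7 genes averaged 0.056 and 0.015 above their group means on the log2 scale. Their highest WT average was on WT 2, at 0.074 above. Of the 7, only Tgfbr1, a TGF-beta receptor gene outside the naming rule, was highest of its groups on KO 3 and WT 1. It lay 0.19 above the group mean on each, a pattern that 14.4% of probe sets had.

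By their smallest p in cerebellum, 4 genes of that list are named. Timp2, an inhibitor of matrix proteases, had 0.57 ± 0.11, Sparc, a collagen-binding protein, 0.32 ± 0.06, and Ccn2, a matrix signalling protein induced by TGF-beta, 0.75 ± 0.15 (SE, n = 3 per group). Tnc, tenascin C, ran the other way at -0.77 ± 0.15. In hippocampus these genes had 0.066 ± 0.08, 0.18 ± 0.09, 0.092 ± 0.13 and -0.40 ± 0.14 in the same order. By their smallest p in hippocampus, Smad7, an inhibitor of TGF-beta signalling, had -0.40 ± 0.11, Ncan, the proteoglycan neurocan, -0.27 ± 0.08, and Tnc and Sparc the values above. Each of Timp2, Sparc, Ccn2 and Tnc was in the authors' cerebellum list, and Smad7 and Ncan in the hippocampus list, so these signs are not independent evidence.

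**Figure D4:**
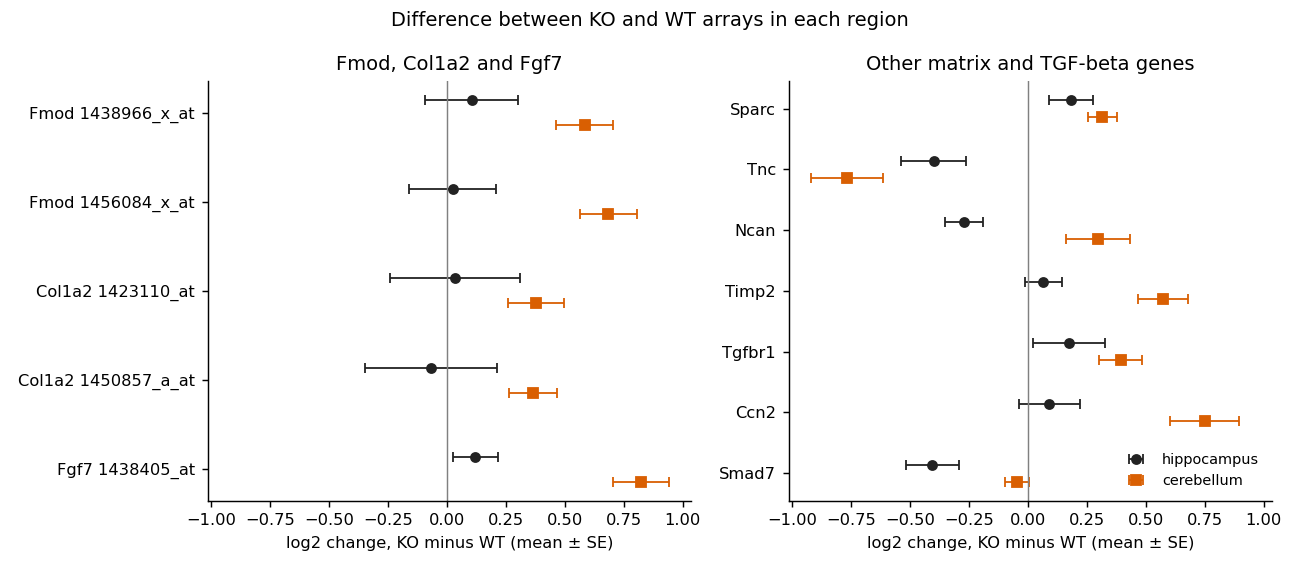
Log2 difference, KO minus WT, in hippocampus (circles) and cerebellum (squares), for the 5 probe sets of Fmod, Col1a2 and Fgf7 (left) and all 7 named genes of the matrix list (right), with Smad7 in cerebellum from a fit with no filter; bars are SE from limma, n = 3 arrays per group. The 5 probe sets lie between 0.37 and 0.82 in cerebellum and between -0.067 and 0.12 in hippocampus.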

How the data were processed

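Each array has 1 linear intensity for every probe set, which the authors computed with dChip, per the series' design text. No source used here names the dChip version, the background step or how arrays were normalized. The series-wide matrix of intensities, used here, equals the deposited regional tables (largest difference 0.0), no pair of arrays held identical values (0), and no sample column was left unused (0). The authors' deposited short lists give, per the file headers, a signed fold change, used as a score, and an unadjusted p-value. Gene names come from those lists: 610 probe sets, of which 538 have 1 symbol after matching to the RefSeq gene table of GRCm38.p6.

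Values were analysed as log2(intensity + 32), so a fold change understates that of a dim probe set. Without control probe sets, those above the 40th percentile of mean log2 value were fitted in each region (27022 of 45037). KO and WT were compared in R 4.3.3 by limma 3.58.1, whose eBayes step let the variance follow intensity, and p-values were adjusted by Benjamini-Hochberg over all probe sets (threshold 0.05). Every adjusted p in the text is from limma unless a correlation is named. A member below the percentile was fitted with no filter. The limma steps were tested on simulated data.

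Replicates are arrays of samples the labels number separately, and p-values measure the spread between these samples, which may in part be technical. Nothing in the labels ties a replicate number to a mouse, and same-numbered arrays did not all deviate together, so the main fits hold no block. For KO against WT arrays, which cannot be one mouse, r spanned -0.50 to 0.68 within hippocampus. Cerebellum gave -0.24 to 0.34. Hippocampus against cerebellum arrays of the same genotype had r = 0.58, 0.54 and -0.27 for KO 1, 2 and 3. For WT 1, 2 and 3 these were -0.022, 0.13 and -0.19. KO 1 and KO 2 thus deviated together over regions, and whether such pairs share a mouse was not tested. Correlations on single arrays used deviations from the mean of each group, with exact two-sided permutation within groups. The members and gene lists were chosen with earlier results of these data known. Named were the members, Ercc1, the 3 probe sets most like each member gene, and at most 4 genes of each list per region, by smallest p; a plot shows all 7 of the matrix list, and others are said to be outside this rule. Alternatives changed the pseudocount, filter, normalization, trend, fit, block and probe sets per gene, and left out each array in turn. Other steps ran in Python 3.11.15 (SciPy 1.17.1, NumPy 2.4.6, pandas 2.3.3), and plots were drawn in matplotlib 3.10.9.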

Additional observations from a re-analysis of the deposited data

How the results depend on the processing

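The 5 probe sets kept the sign of their difference in cerebellum, and of the difference between regions, under every alternative run. In hippocampus the sign of Fmod and Col1a2 turned when single arrays were left out, over ranges of -0.079 to 0.26 (1438966_x_at), -0.091 to 0.21 (1456084_x_at), -0.26 to 0.22 (1423110_at) and -0.35 to 0.14 (1450857_a_at), all on the log2 scale and none past the threshold. With 1 fit over all 12 arrays, which pools the spread of both regions, the Fgf7 difference in cerebellum, 0.82, passed (limma, adjusted p = 0.0137). The count of probe sets past the threshold was then 6 in hippocampus and 34 in cerebellum, against 0 in each. It was 1 in cerebellum with a filter at the 60th percentile. Without single arrays it spanned 0 to 5 in hippocampus and 0 to 2 in cerebellum. For the difference between regions it was 2 with a pseudocount of 16, against 1. It was 0 with no filter, with quantile normalization, without a trend, and with same-numbered arrays of a genotype as a replicate block over regions. Without single arrays it spanned 0 to 2. The cause of these shifts was not tested. With the replicate number as a block within regions, the counts were 0 in hippocampus, 0 in cerebellum and 1 for the difference, and no member's call changed (Fgf7 in cerebellum 0.82, adjusted p = 0.449). Without single arrays, r changed sign for 4 of the 9 relations. It spanned -0.020 to 0.84 for Col1a2 and Fgf7 in hippocampus and -0.033 to 0.42 for Fmod and Fgf7 over both regions. In cerebellum it spanned -0.96 to 0.69 for Fmod and Fgf7 and -0.84 to 0.81 for Col1a2 and Fgf7. With 1 array left out, a region allows too few orders for its p to pass. No signal over background is known per probe set, so dim probe sets such as Fgf7 in hippocampus carry a limit that could not be measured.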

Other observations

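On WT replicate 3, all 5 probe sets had the lowest intensity of the 3 WT arrays in both regions. This pattern was noticed after the values were seen. Of all probe sets that passed the filter in both regions, 5.54% had it, and 32.9% had it in hippocampus and 19.5% in cerebellum. The 5 probe sets stand for 3 genes, and the labels do not say whether the number names a mouse. Without cerebellum WT replicate 3, the difference between KO and WT cerebellum was 0.59 ± 0.13 for the brighter Fmod probe set and 0.76 ± 0.14 for Fgf7 (SE, 3 KO and 2 WT arrays), against 0.68 and 0.82 with it.

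In cerebellum the leading residual component held 49.5% of the variance within groups. Both Fmod probe sets had its sign on 5 of the 6 arrays, all but WT 3, both Col1a2 probe sets on 3, and Fgf7 on 1. The direction of a component is arbitrary, so Fgf7 ran opposite to it on all arrays but KO 3. The share of all probe sets with such counts was not computed.

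Serping1, which encodes the inhibitor of complement C1, was the closest to Fmod over all 12 arrays, and its intensities show how near the match was. They were 305.7, 417.6 and 430.9 on the KO hippocampus arrays and 303.8, 283.2 and 275.7 on the WT hippocampus arrays, with replicates in the same order as Fmod. On the cerebellum arrays they were 274.4, 287.5 and 290.2 in KO and 219.8, 200.4 and 167.3 in WT. There the order differed among KO arrays, as Serping1 was lowest and both Fmod probe sets highest on KO 1. Serping1 was picked as the highest of 536 named probe sets, which by itself favours a high value.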
